A study of Homo sapiens with 10 samples.

Results

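MAZ and 8 related zinc finger factors that bind GC-rich promoter DNA were followed through RNA-seq of C33A cells, a human cervical carcinoma line. The 9 genes, MAZ, VEZF1, PATZ1, SP1, SP2, SP3, SP4, ZNF148 and ZNF281, were chosen by name and matched by symbol to 9 of the 63152 gene identifiers in the expression tables. All 9 had a mean of the 4 base means of at least 100, as did 11666 identifiers in all, which are called expressed here. Of the 2969 exons in the splicing tables, 4 lay in these genes, in MAZ, PATZ1 and SP3, and no exon of the other 6 genes was listed.

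The series holds 10 libraries, 2 from each of 5 groups of cells harvested 48 h after transient transfection. Control cells received the empty plasmid pOPRSVI. BRG1-wt cells received pBJ5-BRG1 and BRM-wt cells pCG-hBrm, plasmids for the SWI/SNF ATPases BRG1 and BRM. BRG1-mut and BRM-mut cells received pBJ5-BRG1-K798R and pCG-hBrm-K798R, which carry a K798R substitution in the ATPase domain. The control plasmid has another backbone than either kind of ATPase plasmid, and no selection of the cells that had taken up plasmid is described. Cells of all 5 groups share the background of the C33A line, which the authors describe as deficient in both ATPases. As 1 cell line was used, no other genetic background was measured.

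The depth behind single values is unknown, since neither kind of table gives reads per event or per library. Each of the 8 splicing tables compares 1 ATPase library with its control of equal replicate number, and lists between 396 and 977 events whose Bayes factor from MISO exceeded 10. The 4 expression tables give the base mean, which is the authors' mean of normalised counts over 2 control and 2 ATPase libraries, so that it is a level without an SD. SMARCA4, the gene of BRG1, had a base mean of 25800 and 29820 in the tables of BRG1-wt and BRG1-mut and of 3864 and 3076 in those of BRM-wt and BRM-mut. No BRG1 plasmid was given in the last 2 tables, where the median expressed gene had 1259 (BRM-wt) and 1295 (BRM-mut). The RNA of SMARCA4 was thus not low there. SMARCA2, the gene of BRM, had 59660 and 75590 in the BRM-wt and BRM-mut tables against 12.6 and 9.33 in the BRG1-wt and BRG1-mut tables. Of the epithelial markers, KRT18 had base means of 695.8 (BRG1-wt table), 271.7 (BRG1-mut), 590.6 (BRM-wt) and 263.3 (BRM-mut). KRT8 had 455.7, 134.1, 371.4 and 90.8 in the same order, so that both keratins were lower in the tables of the mutant ATPases. The mean of the 4 base means was 26.6 for EPCAM, 4.99 for CDH1 and 0.606 for KRT19. Of the 6 matched markers of fibroblasts, leukocytes and endothelium, PTPRC (mean 1641) and COL1A2 (238.1) were above 100 and CD3E was listed at 0.

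These factors read related DNA sequences through C2H2 zinc fingers. SP1 to SP4 bind the GC box of housekeeping promoters; SP1 is the classic activator, SP3 can activate or repress, SP2 diverges from the others in its binding, and SP4 is known from neurons. MAZ, the MYC-associated zinc finger protein, binds G-rich sites at promoters and transcription terminators, and VEZF1 and PATZ1 bind similar runs of G. VEZF1 is known from blood vessel development, and PATZ1 also carries a BTB domain through which it pairs with other proteins. ZNF148 and ZNF281 are related to each other and compete with SP factors at GC-rich promoters.

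The exon of MAZ that was listed is exon 5 of the transcript MAZ-201, at chr16:29820861-29821085 on the plus strand (GRCh37), with a length of 225 bp. Its first 200 bases are coding and are followed by the stop codon of MAZ-201, so that an included exon ends the reading frame before the last exon. The coding part, with the stop codon in capitals, and the splice sites, with exon bases in capitals, are shown because they set the C-terminal end of the protein made with the exon.
MAZ exon 5, coding part and stop: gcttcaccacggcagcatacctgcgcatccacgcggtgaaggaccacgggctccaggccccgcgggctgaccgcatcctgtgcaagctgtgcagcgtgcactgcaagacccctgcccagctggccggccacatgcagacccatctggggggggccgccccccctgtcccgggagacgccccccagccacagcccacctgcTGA
MAZ exon 5, acceptor: cccaatccaccccccaatagGCT
MAZ exon 5, donor: CAGgcaagg
The donor begins with gc in place of the usual gt. MAZ-201 has 6 exons and 493 codons. MAZ-202, which goes from the exon before directly to the last exon and finds its own stop there, has 5 exons and 477 codons. MAZ has 15 annotated transcripts, 1 with an exon of exactly these bounds and 3 with an exon that overlaps it.

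**Figure D1:**
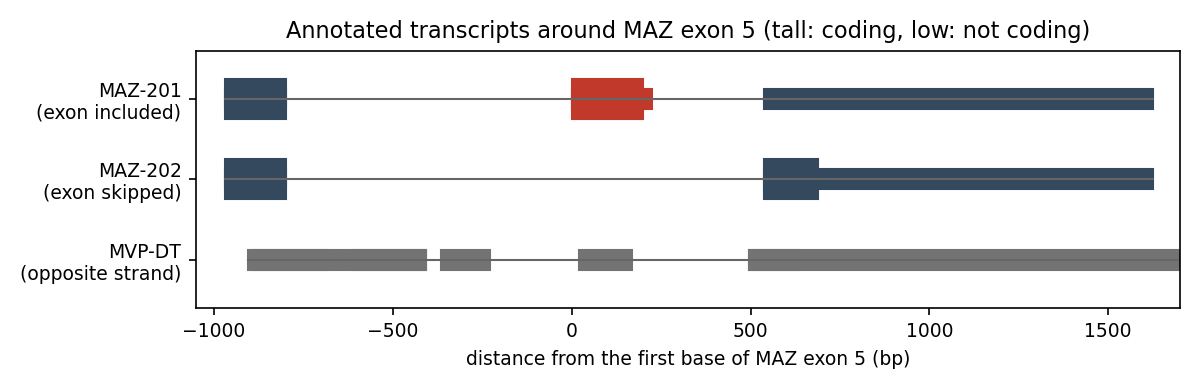
Annotated transcripts around MAZ exon 5, with the distance in bp from its first base on the horizontal axis; tall boxes are coding and low boxes are not. The red exon of 225 bp is in MAZ-201 and absent from MAZ-202, and an exon of MVP-DT lies across it on the opposite strand.

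The listed exon of PATZ1 is exon 4 of PATZ1-202, at chr22:31724773-31724910 on the minus strand, with 138 bp that are coding throughout. PATZ1-202 has 687 codons. PATZ1-203, with 4 exons in place of 5, has 641 codons, which are 46 fewer, the number that 138 bases hold. A shorter form of the exon in PATZ1-204 begins within it and has 73 bp. The exon is shown with the shorter form in capitals, so that both starts can be seen, and its splice sites with exon bases in capitals.
PATZ1 exon 4: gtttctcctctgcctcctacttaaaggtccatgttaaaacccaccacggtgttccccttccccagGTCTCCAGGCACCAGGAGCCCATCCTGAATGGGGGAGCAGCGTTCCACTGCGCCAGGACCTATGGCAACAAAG
PATZ1 exon 4, acceptor: tctccttttgtcttgtttagGTT
PATZ1 exon 4, donor: AAGgcaagc
The bases before the capitals end in ag, as an acceptor does. The donor begins with gc, as that of MAZ exon 5 does.

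The listed exon of SP3 is exon 3 of SP3-201, which was listed in 2 forms on the minus strand that share the donor. The longer form, at chr2:174828489-174828611, is annotated and has 123 bp. The shorter one, at chr2:174828489-174828602, has 114 bp and is not annotated with these bounds. Both lengths are multiples of 3. The acceptors are shown with exon bases in capitals, because they differ by the 9 bases that only the longer form includes.
SP3 exon 3, acceptor of the longer form: aacccgcccattgggggtagGAC
SP3 exon 3, bases of the longer form only: gacactcag
SP3 exon 3, acceptor of the shorter form: attgggggtaggacactcagCCG
SP3 exon 3, donor of both forms: GCGgtaagt
SP3 is known for several protein forms that start at different codons. SP3-203 and SP3-211 begin upstream of this acceptor and hold an annotated ATA start codon inside the exon, followed by coding sequence to the donor. These 75 bases are shown with the start codon in capitals.
SP3 exon 3, from the start codon: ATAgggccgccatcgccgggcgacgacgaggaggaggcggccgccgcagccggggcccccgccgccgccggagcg
SP3-201 has 781 codons, SP3-211 has 727 and SP3-203 has 713.

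Inclusion of MAZ exon 5 was low in control cells and higher in 3 ATPase libraries. PSI is the fraction of transcripts that include an exon, given to 2 decimals. PSI of MAZ exon 5 was 0.08 in the control library and 0.13 in the BRG1-mut library of replicate 1. It was 0.08 in the control library and 0.15 in the BRG1-mut library of replicate 2. Both BRG1-mut libraries thus lay above both control libraries, with a mean of 0.14 ± 0.014 (SD, n = 2) against 0.08 ± 0.00 (SD, n = 2). The mean difference was 0.06. An exon is listed in a table only where its change passed the Bayes factor threshold there, so that for an exon listed in both replicates with 1 direction this order of the libraries is not an independent result. The two-sided exact permutation test over 2 against 2 libraries therefore tells nothing more, and its p of 0.333 is the smallest this design allows. No label says whether replicates are separate cultures, so that the spread may be technical. In BRM-wt, PSI was 0.08 in the control library and 0.13 in the BRM-wt library of replicate 1. The exon was not listed for replicate 2 of BRM-wt, or in either replicate of BRG1-wt or BRM-mut. As the tables leave out events under the Bayes factor threshold, its PSI in these 5 ATPase libraries is not known. The BRG1-mut and BRM-wt libraries of replicate 1 share 1 control library. In the paper, qPCR of the same exon gave no significant gain with BRG1-mut, but a significant one with BRG1-wt and with BRM-wt. The rise in the BRG1-mut libraries thus rests on the RNA-seq alone.

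PATZ1 exon 4 was listed in 1 table. Its PSI was 0.13 in the control library and 0.23 in the BRM-wt library of replicate 1, a difference of 0.1. It was not listed for BRM-wt replicate 2. SP3 exon 3 was also listed in 1 table, in the opposite direction. PSI of its longer form was 0.12 in the control library and 0.06 in the BRG1-wt library of replicate 1, and PSI of its shorter form was 0.13 and 0.06. The differences were -0.06 and -0.07, and since both forms share the donor and most of their bases they are not independent measurements. The first exons of SP3-203 (459 bp) and SP3-211 (309 bp) also cover the bases of both forms and end at the same donor. The part of these first exons in the PSI of SP3 was not tested. Neither form was listed for BRG1-wt replicate 2 or in BRG1-mut. Whether the PSI of MAZ, PATZ1 or SP3 differed between ATPase groups was not tested, since an exon that is not listed has no value.

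**Figure D2:**
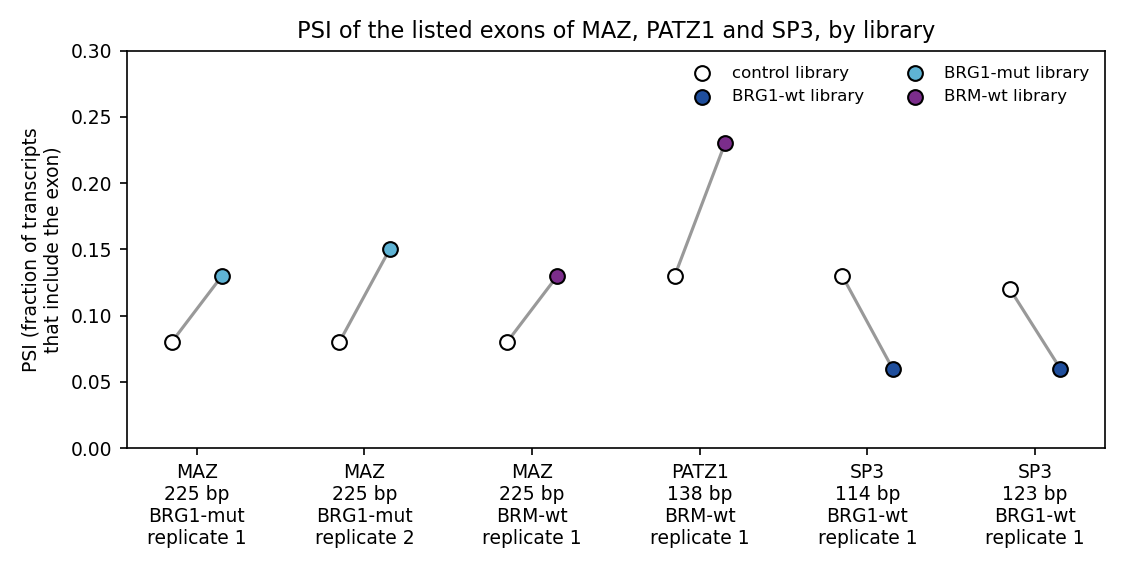
PSI (fraction, vertical axis) of each listed exon of MAZ, PATZ1 and SP3, with 1 pair of points per splicing table; open points are control libraries, filled points are ATPase libraries, and no error is plotted because the tables give none for a library. MAZ goes from 0.08 to 0.13, 0.15 and 0.13, PATZ1 from 0.13 to 0.23, and both forms of SP3 fall to 0.06.

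All these differences were small beside those of other listed exons. In BRG1-mut replicate 1, 57.9% of the 699 listed exons had a higher PSI than in control, with a median difference of 0.31, and 24 of these 405 exons (5.93%) changed by less than MAZ exon 5. In BRG1-mut replicate 2, 58.5% of 609 exons had a higher PSI, with a median difference of 0.25, and 38 of 356 (10.7%) changed by less. In BRM-wt replicate 1, 60.2% of 799 exons had a higher PSI, with a median difference of 0.31. There, 18 of 481 exons (3.74%) changed by less than MAZ exon 5, and 54 (11.2%) by less than PATZ1 exon 4. The replicates of BRM-wt differed in direction. Counted as events, 59.9% of 830 had a higher PSI in replicate 1 and 43.6% of 977 in replicate 2, where neither exon was listed. In BRG1-wt replicate 1, 55.5% of 616 exons had a higher PSI, and the 274 others had a median size of change of 0.26. Of these 274, 34 exons (12.4%) changed by less than the longer form of SP3 exon 3 and 39 (14.2%) by less than the shorter one. The exons of MAZ, PATZ1 and SP3 thus lay in the lower part of each distribution.

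**Figure D3:**
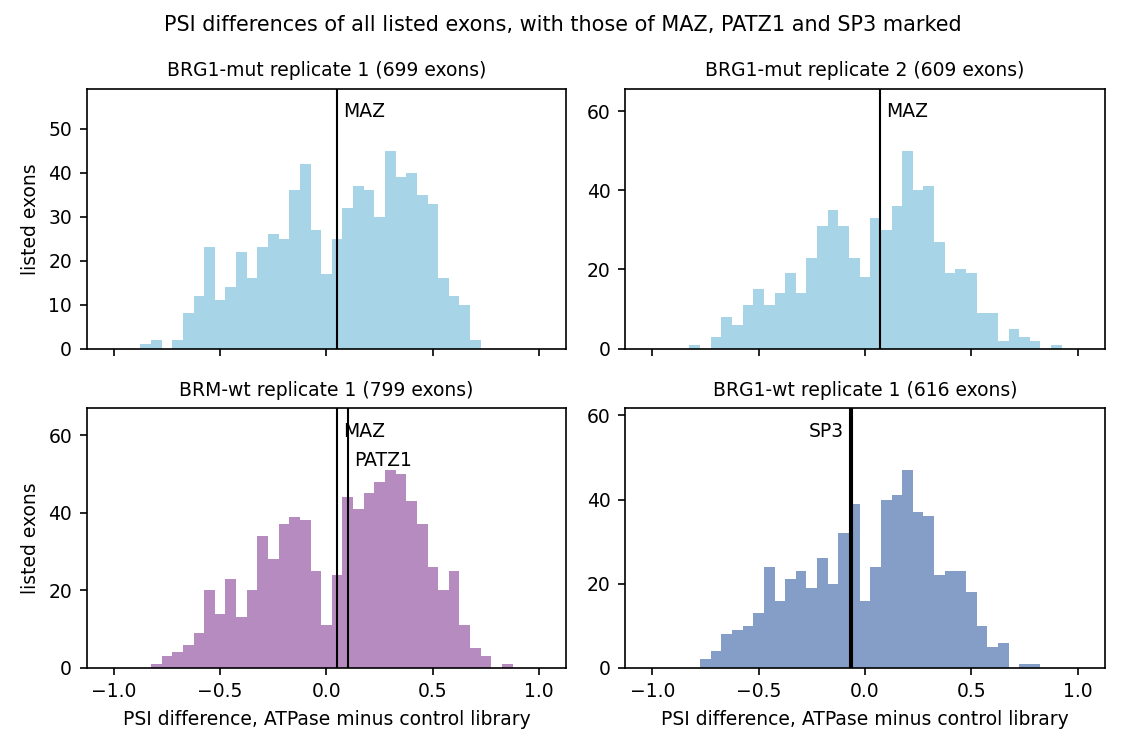
Histograms of the PSI difference (ATPase library minus control library, horizontal axis, bins of 0.05) over all exons listed in 4 splicing tables, with the number of exons on the vertical axis and vertical lines at the exons of MAZ, PATZ1 and SP3. The lines lie between -0.07 and 0.1, close to 0.

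Of the 9 genes, 1 had a listed exon in BRG1-wt (SP3), 1 in BRG1-mut (MAZ), 2 in BRM-wt (MAZ and PATZ1) and 0 in BRM-mut. Among all 11666 expressed genes the share with a listed exon was 6.27% in BRG1-wt, 7.7% in BRG1-mut, 9.55% in BRM-wt and 6.4% in BRM-mut. Over all groups, 3 of the 9 genes had a listed exon, where the share over all expressed genes was 17.8%. These are counts of few genes, and nothing particular to these factors can be read from it. In 1 of the 3 genes, MAZ, an exon was listed in both replicates of a group. The share of all expressed genes listed in both replicates was not determined, so nothing particular to MAZ can be read from this.

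The listed exons of MAZ and SP3 were among the richest in G and C of all listed exons. GC content was 72.4% for MAZ exon 5, and 77.2% and 79.0% for the longer and shorter forms of SP3 exon 3. The median over all 2969 listed exons was 50.4%, with quartiles of 43.5% and 58.2%. PATZ1 exon 4 had 57.2%, close to the upper quartile. The 500 bp on each side had 63.9% at MAZ, 58.1% at PATZ1 and 64.7% at the longer form of SP3. MAZ exon 5 lies between introns of 798 and 312 bp. PATZ1 exon 4 follows an intron of 6767 bp and precedes one of 1477 bp, and the longer form of SP3 exon 3 follows one of 521 bp and precedes one of 7528 bp. The GC-rich exons of MAZ and SP3 moved in opposite directions, in different ATPase groups.

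MVP-DT, a long non-coding RNA gene on the opposite strand, has an annotated exon that covers 148 of the 225 bases of MAZ exon 5. Its exons cover 43.7% of the annotated exonic bases of MAZ (1536 bp), and the mean of its base means was 33.2 against 4103 for MAZ. Whether reads were assigned by strand is not stated in the sources used here, and without strand the reads of both genes cannot be told apart where they overlap. The part of MVP-DT in the values of MAZ was not tested.

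The exons most like MAZ exon 5 were sought among exons listed with a higher PSI in the same 3 tables (BRG1-mut replicates 1 and 2, BRM-wt replicate 1), of which there were 77 including that of MAZ. Likeness was the Euclidean distance between the PSI differences of the 3 tables, and these tables share control libraries, so the order is a description. The other splicing tables were not used for it, so a near exon may also be listed in tables where that of MAZ was not. An exon of SNRNP70, the gene of a U1 snRNP protein, at chr19:49605371-49606844 was nearest, with PSI differences of 0.04, 0.06 and 0.05 and a distance of 0.0141. An exon of SF1, the branch point binding protein, at chr11:64533423-64533627 followed with 0.06, 0.05 and 0.08 (distance 0.0374). Exons of SPRY1 (0.0735), PRAF2 (0.156) and PDCD6 (0.186) came next. Those of PRAF2 and PDCD6 also lie within other annotated genes.

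MAZ had the highest level per kb of the 9 genes and SP3 the highest base mean. The level per kb is the base mean divided by the length of the annotated exons in kb. For MAZ it was 1181 in the BRG1-wt table, 1375 in the BRG1-mut table, 1095 in the BRM-wt table and 1022 in the BRM-mut table, which placed it between the 84.8th and the 90.1st percentile of the expressed genes. SP1, the classic GC-box factor, lay between 798.9 and 895.9, and VEZF1 between 588.9 and 673.9. SP3 lay between 482.2 and 569.5, ZNF281 between 383.3 and 447.1, and PATZ1 between 325.4 and 366.4. ZNF148 (224.3 to 265.9) and SP4 (204.3 to 250.4) lay near the median of expressed genes, which was 244.3 to 255.3, and SP2 (109.7 to 150.6) was the lowest. The order was the same in all 4 tables, and the ranges of neighbours did not overlap except for those of ZNF148 and SP4. All 4 base means hold the same 2 control libraries, so these ranges tend to understate the spread between libraries. Length matters for this order. With the longest transcript in place of all annotated exons, the median over the tables was 711.9 for SP3 against 662.1 for VEZF1, and 502.5 for PATZ1 against 399.5 for ZNF281, so that both pairs changed places. On the base mean scale, which favours long genes such as SP3 with 16892 bp of annotated exons, SP3 (8145 to 9620) stood above SP1 (6458 to 7242) and MAZ (3588 to 4830).

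**Figure D4:**
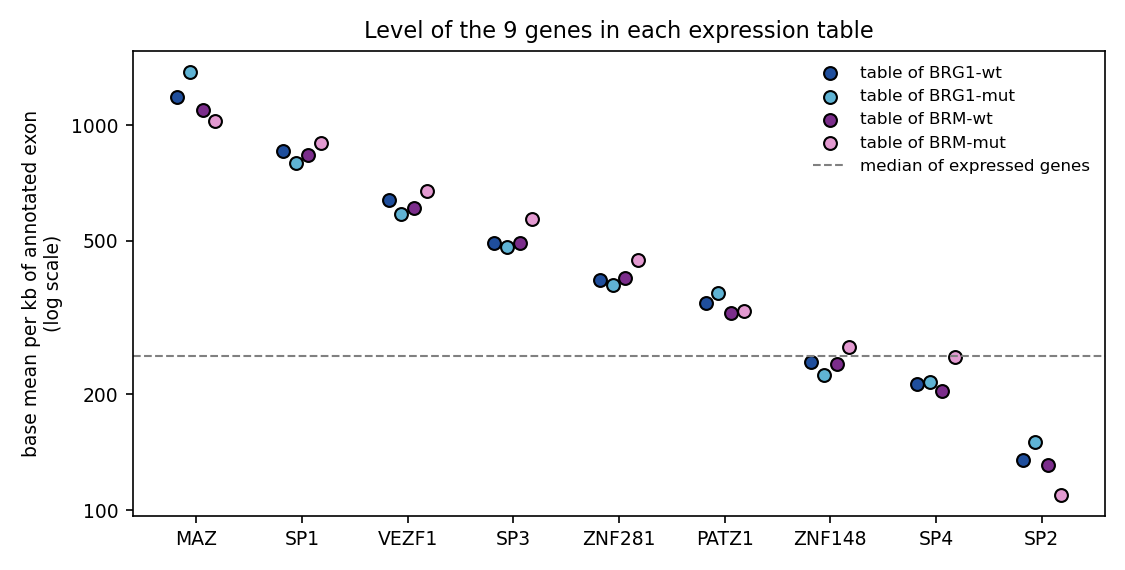
Base mean per kb of annotated exon (log scale, vertical axis) of the 9 genes in each of the 4 expression tables; each point is the authors' mean over 4 libraries, without an error, and the dashed line is the median of all expressed genes. MAZ is highest at 1022 to 1375 and SP2 lowest at 109.7 to 150.6.

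MAZ, PATZ1 and SP2 had their highest base mean, not centred, in the BRG1-mut table, and the other 6 genes in the BRM-mut table. The share of all expressed genes highest in each table was not determined. MAZ, PATZ1 and SP2 are also the genes whose exons had a GC content above the median of expressed genes (46.8%). It was 65.9% for MAZ, 57.8% for PATZ1 and 56.2% for SP2, while the other 6 lay between 37.4% (ZNF148) and 44.8% (SP1). The base mean of MAZ was 4149 in the BRG1-wt table, 4830 in the BRG1-mut table, 3845 in the BRM-wt table and 3588 in the BRM-mut table, so that the highest was 1.35 times the lowest. For SP2 the 4 values were 481.2, 537.8, 466.6 and 391.8, a ratio of 1.37. For SP4 they were 1327, 1341, 1272 and 1559, a ratio of 1.23. The other 6 genes had ratios between 1.12 (SP1) and 1.19 (ZNF148). As the control libraries are in every table, such a ratio tends to be smaller than the ratio between the ATPase libraries themselves. The tables were normalised separately, so this need not hold for each gene.

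Set between the tables of mutant and wild-type ATPase, the base means followed exonic GC content, in opposite directions for BRG1 and BRM. Log2 ratios of base means were centred on the median of the 11666 expressed genes, above which 50.0% of genes lie in each pair of tables. These tables were normalised separately and share the control libraries, so no test was run. For BRG1-mut over BRG1-wt the centred log2 ratio was 0.25 for MAZ, 0.19 for SP2, 0.12 for PATZ1 and 0.04 for SP4, and the other 5 genes lay between -0.09 (VEZF1) and -0.01 (SP3). For BRM-mut over BRM-wt it was -0.34 for SP2, -0.19 for MAZ and -0.07 for PATZ1, and 6 genes lay between 0.01 (SP1) and 0.21 (SP4). MAZ, SP2 and PATZ1 were thus above the median gene in the first pair and below it in the other, except that PATZ1 stood at 0.02 in the other pair when ratios were not centred. The keratins KRT8 and KRT18 also moved between these tables. The base mean summed over all 5 epithelial markers was 1183 (BRG1-wt table), 439.1 (BRG1-mut), 991.1 (BRM-wt) and 389.1 (BRM-mut). Most of it came from these keratins. EPCAM rose instead, from 23.98 (BRG1-wt table) to 30.21 (BRG1-mut) and from 22.64 (BRM-wt) to 29.64 (BRM-mut). CDH1 went from 6.275 to 3.047 between the BRG1 tables and from 5.308 to 5.351 between the BRM tables. KRT19 had at most 1.233 in any table. The part of these markers in the ratios was not tested. Among all expressed genes, split into 20 bins by GC content, the lowest and the highest bin had median ratios of -0.05 and 0.48 for BRG1-mut over BRG1-wt, and of 0.06 and -0.44 for BRM-mut over BRM-wt.

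Against genes of like GC content (the same bins), MAZ changed sides. For BRG1-mut over BRG1-wt its log2 ratio was 0.24 below the median of its bin, at the 13.9th percentile, although it was above the median of all genes. For BRM-mut over BRM-wt it was 0.25 above the median of its bin, at the 88.4th percentile. PATZ1 changed sides as well, with -0.04 and 0.06. SP2 kept its directions, with 0.08 and -0.23. SP4 was above genes of like GC content in both pairs, by 0.09 and 0.15, at the 95.0th and 98.5th percentile. The other 5 genes lay between -0.05 (VEZF1) and 0.07 (SP3) of the median of their bin in both pairs. The part of GC content in these values was not tested.

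**Figure D5:**
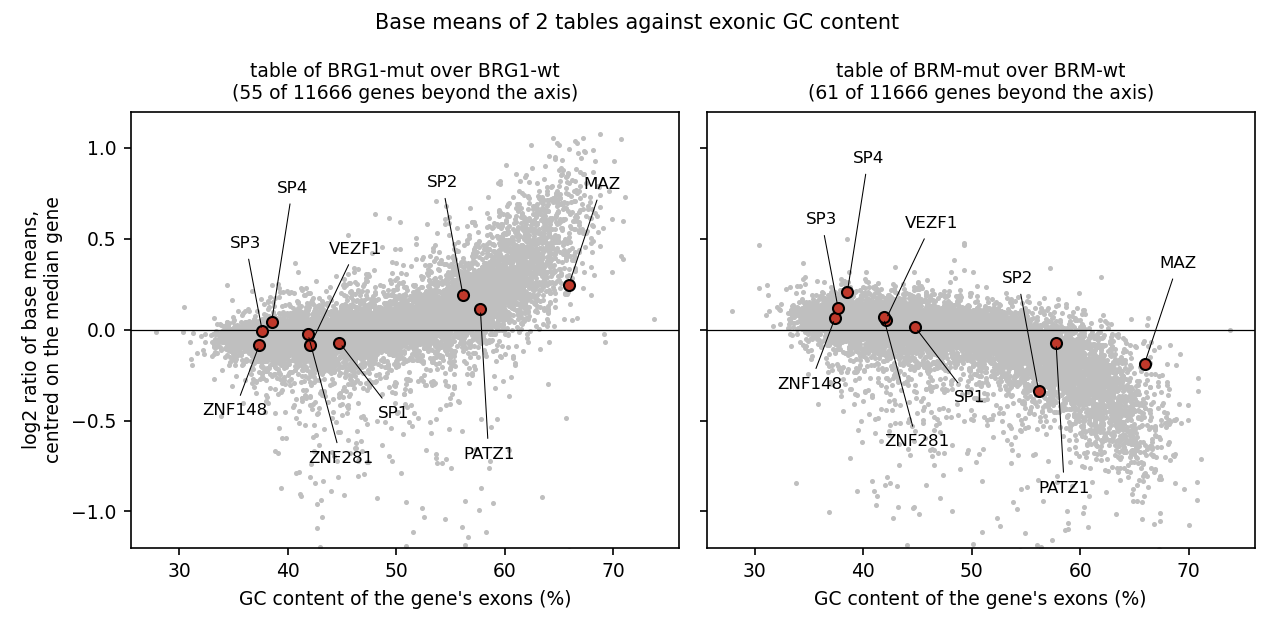
Log2 ratio of the base means of 2 expression tables, centred on the median gene (vertical axis), against the GC content of the gene's exons in percent (horizontal axis); grey points are all 11666 expressed genes, and the 9 factors are in red. MAZ (65.9% GC) lies at 0.25 in the left panel and at -0.19 in the right one, on the side of 0 where most GC-rich genes lie.

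Promoter sequences of 8 of the 9 genes, from 250 bases before to 50 after the start, were matched by symbol in RefSeq (GRCh38.p14), and PATZ1 was missing. The GC box GGGCGG, searched on both strands, was in at least 1 promoter of 7 of these 8 genes, while 48.3% of 27305 genes hold it. It occurred 7 times in the promoter of MAZ and up to 10 times in a promoter of SP1, and it was not found in those of ZNF148. The letters GGGAGGG, a G-rich core of the kind MAZ binds, were in promoters of 4 of the 8 genes, against 29.4% of all genes, with 5 matches at MAZ. Matches of both motifs may overlap. These counts describe sequence and not binding.

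The genes related to these factors were taken as 4 lists. Of 22 other SP and KLF genes 12 had a base mean of at least 100, led by KLF10 (8506), KLF3 (3001) and KLF5 (2730), and 2 had a listed exon. KLF6, a factor induced in injured tissue, had a PSI of 0.97 in control and 0.65 in BRM-wt of replicate 2, and KLF7 had 0.05 and 0.2 in the same libraries. Of 12 other zinc finger factors of GC-rich sites 8 were expressed, led by YY1 (8017), EGR1 (7631) and the insulator protein CTCF (3300), and none had a listed exon.

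Of 14 genes known for GC-box or MAZ sites in their promoters 13 were expressed, led by ODC1 (27080), the first enzyme of polyamine synthesis, TYMS (8378) and MYC (6348). In this list TERT, the catalytic subunit of telomerase, alone had a listed exon, with a PSI of 0.18 in control and 0.01 in BRM-wt of replicate 2. All 11 partners of SP1 at promoters were expressed, led by HDAC2 (13080), HDAC1 (7282) and NFYB (3808). The subunits NFYA and NFYC of the CCAAT-binding factor NF-Y had listed exons. PSI of NFYA was 0.38 in the control library, 0.66 in BRG1-mut and 0.69 in BRG1-wt of replicate 1. NFYC was listed in both directions, from 0.03 in control to 0.14 in BRG1-wt of replicate 2 and from 0.18 in control to 0.03 in BRM-wt of replicate 1. Its 2 control libraries thus differed from each other, at 0.03 and 0.18, and neither ATPase value lay outside them. No direction for an ATPase can be read from NFYC. Beside the 17.8% of all expressed genes with a listed exon, the 4 lists had 2 of 12, 0 of 8, 1 of 13 and 2 of 11 expressed genes.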

How the data were processed

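RNA-seq of cDNA made with oligo-dT was from 10 libraries of C33A cells. The submitters' processing notes name TopHat2 2.0.4, HTSeq 0.6.1, DESeq2 and GRCh37. The authors ran MISO on pairs of 1 ATPase and 1 control library with equal replicate numbers, and their deposited PSI is a fraction. The base mean, handled as a score, is the authors' mean of the counts divided by size factors. The annotation used for counting and its use of strand are not given in the sources used here. Both kinds of table come without reads, so that the depth behind each value is unknown. The deposited tables also hold log2 fold changes, standard errors, p-values and Bayes factors of the authors' own comparisons, which were not used. A second copy of the BRG1-wt table was left out.

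Genes were matched by symbol through GENCODE v44 on GRCh37, which named 55139 of 63152 identifiers. An event belonged to a gene when its middle exon lay within the gene on the same strand. The 2 libraries of a table are paired by the replicate number, as each table was made. Expressed genes had a mean of the 4 base means of at least 100. GC content was read from GRCh37. Levels and ratios between tables were compared without a test. Events per table were given to genes, and ratios centred, by steps tested on simulated data.

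The genes, lists and tests were chosen with earlier results of these data known. Named were all 9 genes, every listed exon of theirs, up to 5 exons nearest in PSI difference to an exon listed in 2 or more tables, SMARCA4 and SMARCA2, and, of each related list, the genes with a listed exon and the 3 with the highest base means. Alternatives were both replicates required, each replicate left out, a PSI difference of at least 0.2, any of the 3 exons of an event, no pairing with the control library, a base mean of at least 10, the longest transcript, ratios not centred or centred on genes of like GC content, and 500 bp on each side of an exon. The splicing tables give PSI without an interval. Python 3.11.15, pandas 2.3.3, numpy 2.4.6 and matplotlib 3.10.9 were used.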

Additional observations from a re-analysis of the deposited data

How the results depend on the processing

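Counts of the 9 genes with a listed exon rest on few tables. With both replicates required, the count fell to 0 for BRG1-wt, to 0 for BRM-wt, and to 1 over all groups. Leaving out 1 replicate gave 0 to 1 in BRG1-wt, 0 to 2 in BRM-wt and 1 to 3 over all groups, and without replicate 1 the exons of PATZ1 and SP3 were gone. With a PSI difference of at least 0.2 the count was 0 for every group and 0 over all groups, because the threshold is above every difference of these exons. The count for BRG1-mut was otherwise 1 in the alternatives run. No share over all expressed genes was determined with both replicates required, a replicate left out or the PSI threshold. These counts therefore have no share to be set beside. The mean PSI difference of MAZ exon 5 in BRG1-mut was 0.05 to 0.07 with 1 replicate left out, and without pairing each library with its control library (no replicate block) it was 0.06, which is the paired value by arithmetic and says nothing about stability. The other exons had both values from 1 table, so that there was no block to remove. Not centred, 7 of the 9 genes had a higher base mean in the BRM-mut than in the BRM-wt table, against 6 when centred, as PATZ1 changed sides. Centring on genes of like GC content also gave 7. The median expressed gene had a log2 ratio of 0.09 in this pair when not centred, so most expressed genes were higher as well. Their exact share was not determined, so nothing particular to the 9 genes can be read from the count that was not centred. With genes of a base mean of at least 10 counted as expressed, the shares with a listed exon were 4.82% in BRG1-wt, 5.97% in BRG1-mut, 7.37% in BRM-wt, 4.95% in BRM-mut and 13.9% over all groups. PSI tables without reads and base means without libraries set the limit on error.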

Other observations

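The tables of BRG1-mut and BRM-mut were set against each other after the data were seen. MAZ had a base mean of 4830 in the first and 3588 in the other, a log2 ratio of 0.52 when centred on the median expressed gene. SP2 had 0.55 and PATZ1 0.24, and the other 6 genes lay between -0.16 (ZNF148) and -0.08 (SP1). The number of genes above the median was thus 3 of 9. Centred on genes of like GC content it was 1 of 9, SP2, with 0.26, while MAZ stood at -0.42 and at the 9.25th percentile of 584 genes. Across the 9 genes, Spearman's rho between exonic GC content and this ratio was 0.933, and across the 11666 expressed genes it was 0.866. Both are descriptions over genes that share the same libraries.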
